A study of Mus musculus with 9 samples.

Results

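The genes described here are 9 that govern where a maturing thymocyte goes and when it leaves the thymus: Klf2, S1pr1, Cd69, Ccr7, Ccr4, Cxcr4, Cxcr6, Itgae and Cd24a. They were chosen by symbol, for their known roles and with earlier results of these data known, from a table of 24594 genes, and each was found once. The values were reads scaled to exon length and library size (RPKM) from bulk RNA sequencing of 9 mouse thymocyte libraries in 4 groups. The sort was for CD4+ CD8- CD69+ Valpha2+ VBeta5+ cells bearing OT-II, a transgenic T cell receptor that recognizes a peptide of chicken ovalbumin on MHC class II.

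The groups crossed a donor genotype with a host. Each host was irradiated and carried a marrow mixture for 4.7 weeks, so that control OT-II cells, Nr4a-deficient OT-II cells and non-transgenic cells developed side by side in the same animal. Control donors were Nr4a1+/+ Nr4a3+/+ F1 offspring of B6.Cg-Tg(TcraTcrb)425Cbn/J and BoyJ mice. The other donors were labelled Nr4a1-/- Nr4a3-/- on C57BL/6 and are called DKO-labelled here. WT hosts were labelled BoyJ, whereas the study's methods also describe WT mice that were F1 offspring of a BoyJ cross, and which of these were used is not settled here. RIPmOVA hosts were F1 offspring of BoyJ mice and the Tg(Ins2-TFRC/OVA)296Wehi/WehiJ line on C57BL/6, in which the rat insulin promoter drives membrane ovalbumin, also in the thymic medulla. The study used WT hosts to look at positive selection and RIPmOVA hosts to look at deletion by a self-antigen. There were 2 control and 3 DKO-labelled libraries of WT hosts, and 2 of each genotype of RIPmOVA hosts, named here by genotype and host as OT-II WT, DKO-labelled WT, OT-II RIPmOVA and DKO-labelled RIPmOVA libraries. Donor strain went with genotype and, by the labels, host strain with the antigen, so these cannot be told apart. Control and DKO-labelled libraries with the same number came from the same chimera. The age of the animals is not given in the sources used here.

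Thymocytes that have been positively selected move from the cortex to the medulla, drawn by chemokines of the medullary epithelium and dendritic cells that act on CCR7 and CCR4. There they meet tissue antigens and lose CD24 (heat-stable antigen) as they mature. The transcription factor KLF2 then turns on S1PR1, the receptor through which a cell senses sphingosine-1-phosphate (S1P) in blood and lymph and leaves. CD69, induced by T cell receptor signalling, binds S1PR1 on the same cell and takes it off the surface, which holds the cell in the tissue. CXCR4 is the receptor of CXCL12 and is high on immature thymocytes, CXCR6 is the receptor of CXCL16, and the integrin alphaE (CD103, encoded by Itgae) pairs with beta7 to bind E-cadherin on epithelium.

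Depth, recovered from the steps of the RPKM values, was 15500000 to 25100000 reads per library. Markers of CD4 single-positive T cells summed to 1168 to 1409 RPKM in each library. CD8 T cell markers summed to 58.1 to 98.2 and double-positive thymocyte markers to 20.8 to 38.0. These lists hold 6, 2 and 5 genes, so the sums are not on one footing, and the purity of the sort was not tested. Gene-level RPKM of Nr4a1 did not separate the genotypes (260 and 229 in OT-II RIPmOVA, 282 and 235 in DKO-labelled RIPmOVA libraries), so it does not check the labels. Nr4a3 was higher in DKO-labelled RIPmOVA libraries (16.5 and 14.1 RPKM) than in OT-II RIPmOVA libraries (5.66 and 3.72), a called log2 difference of 1.63 (limma adjusted p = 0.0238), which goes against a loss of its RNA in the libraries labelled Nr4a3-/-. Whether either deletion leaves a transcript that is counted was not tested, and every genotype difference below rests on the labels. Summed RPKM of 1455 sensory receptor genes, which thymocytes are not known to use, was 472 and 632 in the DKO-labelled RIPmOVA group and 200.3 and 73.0 in the OT-II RIPmOVA group. In WT hosts it was highest in OT-II replicate 1 (427) and DKO-labelled replicate 2 (439). In RIPmOVA hosts that background cannot be told apart from genotype. In bulk samples, fewer cells that use a gene and less of its RNA per cell cannot be told apart either.

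Levels of the 9 genes spanned a wide range on the RPKM scale, which is per length of exon. Averaged over all 9 libraries, Ccr7 was highest at 411 RPKM, and its lowest library (323) was above the highest library of any other of these genes. Klf2 (mean 116) and Cd69 (mean 101) came next with overlapping ranges, followed by S1pr1 (56.4), Cd24a (43.9) and Ccr4 (34.1), whose ranges also overlapped. Cxcr6 (5.58), Itgae (3.25) and Cxcr4 (2.86) were lowest. All 9 passed the filter of at least 1 RPKM in at least 2 libraries, but Cxcr6 reached 1 RPKM in only 3 libraries and Itgae in 7. Cxcr6 passed only through the OT-II RIPmOVA libraries, in which it was high, so its tests are not independent of the filter.

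**Figure D1:**
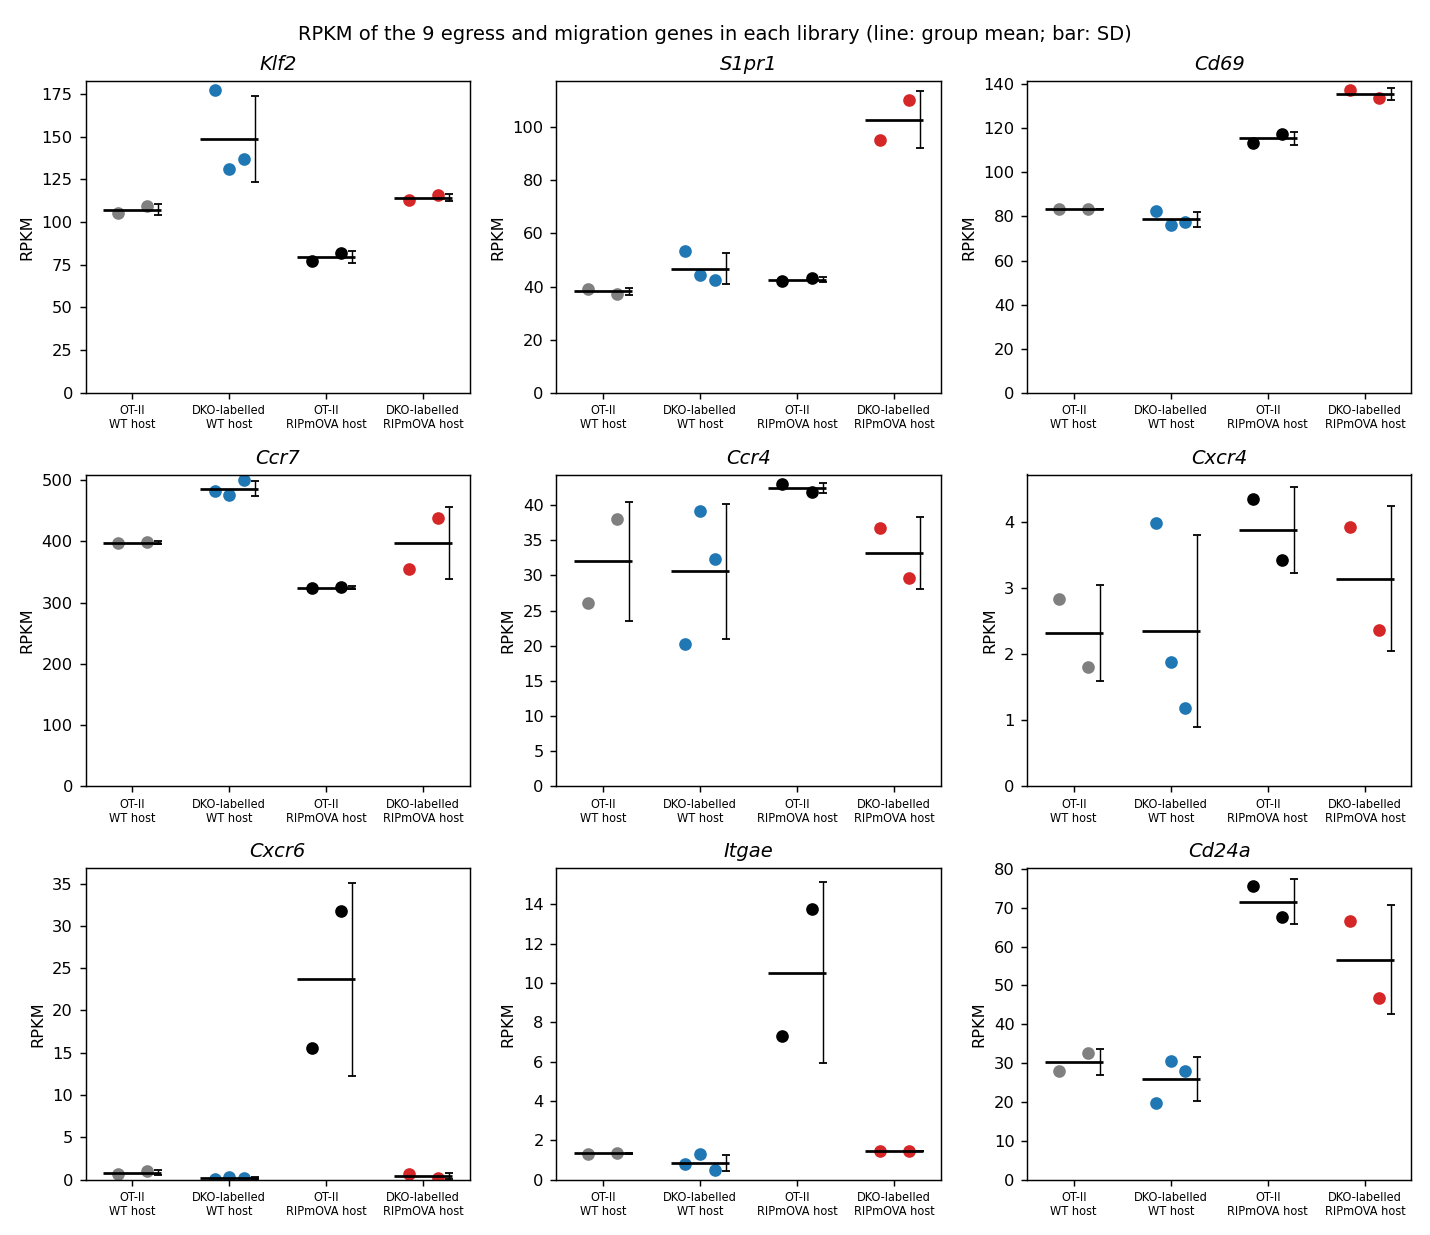
RPKM of each gene (vertical axes, linear from 0) in each of the 9 libraries, grouped by genotype and host; each point is a library, the line is the group mean and the bar its SD. Cxcr6 and Itgae are high in the OT-II RIPmOVA libraries, S1pr1 in the DKO-labelled RIPmOVA libraries, and Cd24a and Cd69 in both groups from RIPmOVA hosts.

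With the self-antigen present, the control OT-II cells carried far more Cxcr6 and Itgae and more Cd24a than in WT hosts, while S1pr1 hardly differed. DKO-labelled cells carried more S1pr1 and more Cd24a with the antigen than without it. To be called, a difference needed a limma adjusted p no higher than 0.05 and a log2 fold change of at least 1 in size. In OT-II libraries 3 of the 9 genes were called between hosts, all higher in RIPmOVA hosts, where 1.23% of the 11569 genes tested were called in either direction and 1.05% were called higher. In DKO-labelled libraries 2 of 9 were called, both higher, where 1.68% of all genes were called and 1.52% were called higher. Between genotypes in RIPmOVA hosts 3 of 9 were called, S1pr1 higher and Cxcr6 and Itgae lower in DKO-labelled libraries, where 1.07% of all genes were called, 0.510% higher and 0.562% lower. In WT hosts 0 of 9 were called by limma between genotypes, where 0.0605% of all genes were called. At an unadjusted p under 0.05 there were 4 of the 9, and 7.89% of all genes. These comparisons share libraries and are not independent of each other.

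**Figure D2:**
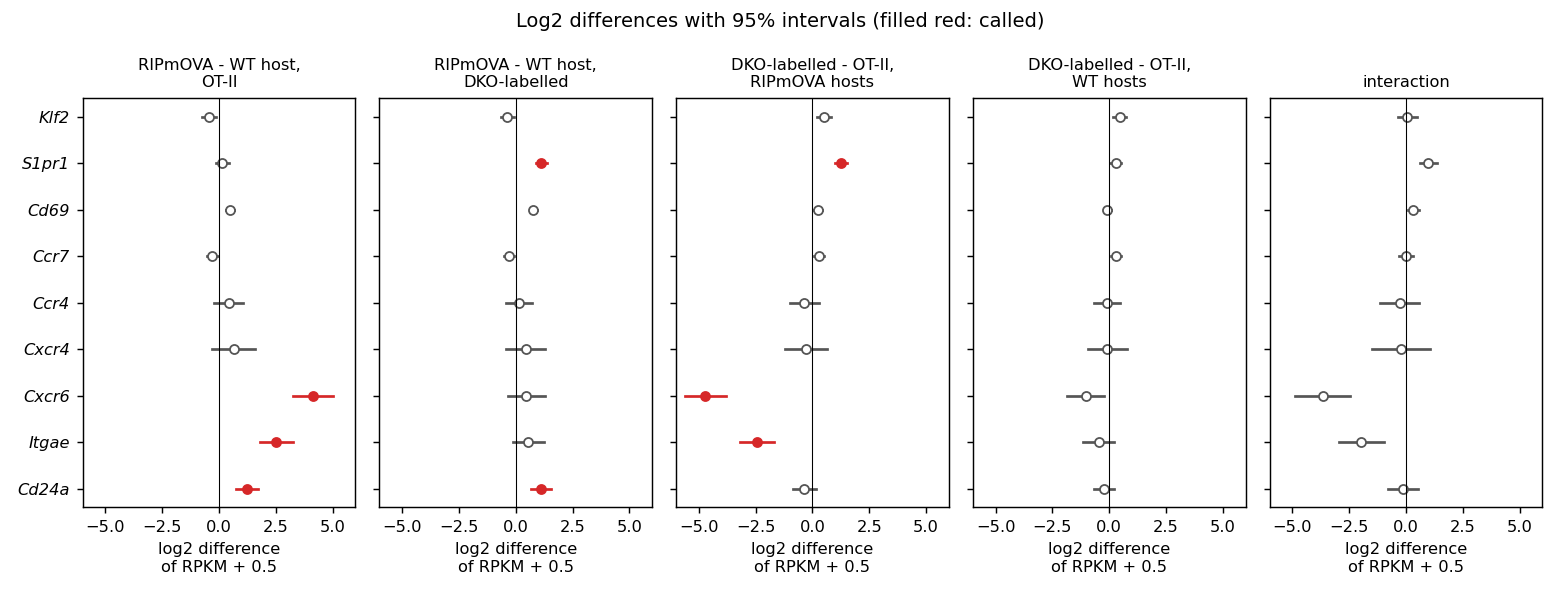
Log2 difference of RPKM + 0.5 (horizontal axes) for each gene in the 4 pairwise comparisons and in the interaction of host and genotype, with 95% intervals from the limma fit over 9 libraries; red points are called. The red points are Cxcr6, Itgae and Cd24a in OT-II libraries between hosts, S1pr1 and Cd24a in DKO-labelled libraries between hosts, and S1pr1, Cxcr6 and Itgae between genotypes in RIPmOVA hosts.

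Klf2 (Entrez 16598, chromosome 8, 72319033 to 72321656, plus strand of GRCm38, protein-coding) encodes the Krüppel-like zinc finger factor at the head of the egress programme. In WT hosts, OT-II cells had 105 and 109.6 RPKM and DKO-labelled cells 177, 131 and 137. With the antigen, OT-II cells had 77.0 and 82.0 RPKM and DKO-labelled cells 113 and 116. The OT-II RIPmOVA libraries were therefore the lowest and the DKO-labelled WT libraries the highest, with no overlap between groups in any of the 4 comparisons. None of these differences was called. The host difference was -0.43 (SE 0.13, limma adjusted p = 0.177) in OT-II and -0.36 (SE 0.12, adjusted p = 0.167) in DKO-labelled libraries on the log2 scale. The genotype difference was 0.52 (SE 0.13, adjusted p = 0.0838) in RIPmOVA hosts and 0.45 (SE 0.12, adjusted p = 0.317) in WT hosts. The interaction was 0.07, with a 95% interval of -0.35 to 0.48, so the host effects of the genotypes differed by less than their error.

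S1pr1 (Entrez 13609, chromosome 3, 115710433 to 115715072, minus strand), the exit receptor, followed another pattern. The OT-II WT libraries held 39.2 and 37.2 RPKM and the DKO-labelled WT libraries 53.6, 44.2 and 42.5. The OT-II RIPmOVA libraries held 42.0 and 43.2 RPKM and the DKO-labelled RIPmOVA libraries 95.3 and 110.5. Both DKO-labelled RIPmOVA libraries were well above the other 7, which lay close together. Mean S1pr1 RPKM in that group (103 ± 10.7, SD, n = 2) was 2.20 times that of DKO-labelled WT libraries (46.8 ± 5.93, SD, n = 3), or 1.13 on the log2 scale (SE 0.11, limma adjusted p = 0.00117). It was 2.42 times that of OT-II RIPmOVA libraries (42.6 ± 0.868, SD, n = 2), or 1.26 on the log2 scale (SE 0.12, adjusted p = 0.00205). In OT-II libraries the host difference was 0.16 (95% interval -0.12 to 0.43, adjusted p = 0.628).

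The difference between these host effects, tested as the interaction, was 0.98 (SE 0.17) for S1pr1, with an unadjusted p of 0.000229 from limma and an adjusted p of 0.139, and is not called. Without OT-II replicate 2 from WT hosts it was 1.01 and called (adjusted p = 0.0439), and over the other alternatives its adjusted p reached 0.839. The host difference of S1pr1 in DKO-labelled libraries was called under all 21 alternatives, including a fit of the 5 DKO-labelled libraries alone, and that in OT-II libraries under 0 of 21. With sensory receptor background as a covariate the genotype difference in RIPmOVA hosts was 1.24 but not called (adjusted p = 0.0619). Klf2 and S1pr1 did not move in parallel: S1pr1 was highest in DKO-labelled RIPmOVA libraries and Klf2 in DKO-labelled WT libraries. Over the 9 libraries the Pearson r of their log2 values was 0.171, given as a description of libraries that share chimeras and groups.

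Cd69 (Entrez 12515, chromosome 6, 129267325 to 129275436, minus strand) encodes the activation-induced lectin that opposes S1PR1, and its protein was a sort criterion, so every library comes from CD69+ cells. Without the antigen RPKM was 83.4 and 83.2 (OT-II) and 82.6, 76.2 and 77.6 (DKO-labelled). With it RPKM was 113 and 118 (OT-II) and 138 and 134 (DKO-labelled). All 4 libraries from RIPmOVA hosts were above all 5 from WT hosts. Mean Cd69 was 1.39 times as high in OT-II libraries with the antigen (log2 0.47, SE 0.08, limma adjusted p = 0.0224) and 1.72 times as high in DKO-labelled libraries (log2 0.78, SE 0.07, adjusted p = 0.000772). Both passed the limit on adjusted p and neither reached the limit on fold change. Within RIPmOVA hosts the genotypes differed by 0.23 (95% interval 0.05 to 0.41, adjusted p = 0.147). S1pr1 and Cd69, whose products oppose each other, were thus both at their highest RPKM in DKO-labelled RIPmOVA libraries.

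Ccr7 (Entrez 12775, chromosome 11, 99144196 to 99155077, minus strand) is the receptor for CCL19 and CCL21, the medullary chemokines. WT hosts gave 397 and 399 RPKM for OT-II and 482, 476 and 500.2 for DKO-labelled cells. RIPmOVA hosts gave 323 and 326 RPKM for OT-II and 355 and 438 for DKO-labelled cells. Libraries from RIPmOVA hosts lay below those from WT hosts in both genotypes, and DKO-labelled above OT-II libraries in both hosts. The shares of all genes in these directions are those given for Klf2. No difference was called: the host difference was -0.29 (SE 0.10, limma adjusted p = 0.219) in OT-II and -0.30 (SE 0.09, adjusted p = 0.136) in DKO-labelled libraries. The order of the groups resembled that of Klf2, with a Pearson r of 0.891 over the 9 libraries.

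Ccr4 (Entrez 12773, chromosome 9, 114490316 to 114504916, minus strand), the receptor for CCL17 and CCL22, had 26.1 and 38.0 RPKM in the OT-II WT group and 20.3, 39.2 and 32.4 in the DKO-labelled WT group. The OT-II RIPmOVA group had 43.0 and 41.9 RPKM and the DKO-labelled RIPmOVA group 36.8 and 29.6. Libraries of one group differed by as much as the groups did. The host difference in OT-II libraries was 0.43 with a 95% interval of -0.20 to 1.06 (limma adjusted p = 0.55), and in DKO-labelled libraries 0.16 with an interval of -0.42 to 0.73.

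Cxcr4 (Entrez 12767, chromosome 1, 128588199 to 128592293, minus strand) was low in every group. Cells of WT hosts had 2.83 and 1.81 RPKM (OT-II) and 3.98, 1.89 and 1.18 (DKO-labelled), which is 80 to 263 reads per library. Cells of RIPmOVA hosts had 4.34 and 3.42 (OT-II) and 3.92 and 2.37 (DKO-labelled). No comparison was called, and the intervals were wide: -0.29 to 1.59 for the host difference in OT-II libraries (limma adjusted p = 0.537) and -1.23 to 0.65 for the genotype difference in RIPmOVA hosts (adjusted p = 0.721). A change of the size called for S1pr1 lies within the first of these intervals and was not detectable here.

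Cxcr6 (Entrez 80901, chromosome 9, 123806475 to 123811760, plus strand) had the largest differences of the 9 genes. The OT-II RIPmOVA libraries had 15.6 and 31.7 RPKM, which is 978 and 2923 reads. The OT-II WT libraries had 0.61 and 1.02 RPKM, or 36 and 90 reads. DKO-labelled RIPmOVA libraries had 0.642 and 0.166 RPKM, or 50 and 11 reads. The DKO-labelled WT libraries were the lowest, at 0.022, 0.261 and 0.136 RPKM, and the first of these rests on 2 reads, under the floor of 3 reads used here for detection. Only the 2 OT-II RIPmOVA libraries stood clear of all others.

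Mean Cxcr6 RPKM in OT-II libraries rose 28.9 times between hosts (23.7 ± 11.4 against 0.818 ± 0.293, SD, n = 2 and 2), which is 4.13 on the log2(RPKM + 0.5) scale (SE 0.40, limma adjusted p = 0.0017). In RIPmOVA hosts it was 58.6 times as high in OT-II as in DKO-labelled libraries (0.404 ± 0.337, SD, n = 2), that is, -4.71 in log2 for DKO-labelled minus OT-II (SE 0.40, adjusted p = 0.000884). The DKO-labelled host difference was 0.46 (95% interval -0.35 to 1.28, adjusted p = 0.511). Tested directly, the host effects differed by -3.67 (SE 0.54, unadjusted p = 7.08e-05 from limma), which was not called over all genes (adjusted p = 0.0913) but was called without OT-II replicate 2 from WT hosts (adjusted p = 0.0315). In WT hosts the genotype difference was -1.04 (SE 0.36, adjusted p = 0.491). Both called differences of Cxcr6 were called under all 21 alternatives. The size depends on the pseudocount because one side is near 0: the genotype difference was -5.65 with a pseudocount of 0.1 and -4.07 with 1.

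Cxcr6 lies inside Fyco1 (chromosome 9, 123789500 to 123851899), a gene on the opposite strand, and the use of strand in counting is not given in the sources used here. The exons of these genes shared 0 bases in GENCODE M21. Fyco1 was at 3.95 to 6.11 RPKM in the 9 libraries, with a host difference of 0.32 in OT-II (limma adjusted p = 0.405) and a genotype difference of -0.02 in RIPmOVA hosts (adjusted p = 0.954). The RPKM of Cxcr6 was computed over 3804 bases of exon, against 1931 in GENCODE M21, so its level depends on the annotation. Whether the ratios between libraries hold over the shorter model, and whether the longer one overlaps Fyco1, was not tested.

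The 250 bases before the RefSeq start of Cxcr6 and of Klf2 are shown because Cxcr6 had the largest differences and because KLF2 is the transcription factor of the set. Both windows are from GRCm38.p6, plus strand: chr9:123806227-123806476 for Cxcr6 and chr8:72318812-72319061 for Klf2. Capitals mark CACCC, the core letters of Krüppel-like factor sites, or its reverse complement GGGTG.
Cxcr6: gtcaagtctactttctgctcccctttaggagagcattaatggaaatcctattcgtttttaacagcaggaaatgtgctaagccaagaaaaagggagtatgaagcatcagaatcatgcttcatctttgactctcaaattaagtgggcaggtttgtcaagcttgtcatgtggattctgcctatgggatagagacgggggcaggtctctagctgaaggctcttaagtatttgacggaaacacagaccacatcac
Klf2: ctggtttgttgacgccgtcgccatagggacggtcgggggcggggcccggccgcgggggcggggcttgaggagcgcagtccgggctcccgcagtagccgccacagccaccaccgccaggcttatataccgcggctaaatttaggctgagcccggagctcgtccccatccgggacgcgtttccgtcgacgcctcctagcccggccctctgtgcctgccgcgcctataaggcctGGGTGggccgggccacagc
CACCC was looked for on both strands from 250 bases before to 50 after the start, together with GTAAACA (FOXO) and AAGGTCA (NR4A). Of the 4 of these genes that had a window, Klf2, Ccr4 and Cxcr4 held 1 match of CACCC each and Cxcr6 held 0, where 57.5% of 32851 promoters held it. None of the 4 held GTAAACA or AAGGTCA, which were in 3.65% and 4.72% of all promoters. The KLF match in Klf2 starts 19 bases before the RefSeq start. GENCODE M21 starts Klf2 at 72319033, inside the window shown, so by that annotation the match lies within the gene. The window of Ccr4 (chr9:114496495-114496794) also lies within the positions given for that gene. The windows thus follow RefSeq starts, which differ from those of GENCODE M21. A match describes letters in a window and not a binding site, and no match says nothing about the factor. S1pr1, Cd69, Ccr7, Itgae and Cd24a had no entry.

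Itgae (Entrez 16407, chromosome 11, 73090583 to 73147446, plus strand) encodes integrin alphaE, which tethers T cells to epithelium. With the antigen OT-II cells had 7.28 and 13.8 RPKM, or 563 and 1563 reads, and without it 1.32 and 1.34. DKO-labelled cells had 1.46 and 1.44 RPKM with it and 0.778, 1.31 and 0.511 without it. As for Cxcr6, both OT-II RIPmOVA libraries stood above the other 7, and replicate 2 was the higher. Mean Itgae was 7.92 times as high with the antigen in OT-II libraries (10.5 ± 4.59 against 1.33 ± 0.0148, SD, n = 2 and 2), which is 2.53 in log2 (SE 0.33, limma adjusted p = 0.00606). In RIPmOVA hosts it was 7.26 times as high in OT-II as in DKO-labelled libraries, that is, -2.43 in log2 for DKO-labelled minus OT-II (SE 0.33, adjusted p = 0.00809). The host difference in DKO-labelled libraries was 0.55 (95% interval -0.12 to 1.23, adjusted p = 0.355), and the interaction was -1.97 (SE 0.44, adjusted p = 0.286).

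Without OT-II replicate 2 from RIPmOVA hosts neither Itgae difference was called (log2 2.09 with adjusted p = 0.0584 between hosts and -2.00 with adjusted p = 0.0726 between genotypes, limma). The sensory receptor covariate also left the Itgae genotype difference uncalled (adjusted p = 0.117), and the 4 OT-II libraries alone left the host difference uncalled. Haspin, a gene on the opposite strand within Itgae that shares 0 exon bases with it, was at 3.38 to 4.96 RPKM in the 9 libraries. Itgb7, which encodes the beta7 partner of alphaE, was at 96.4 and 118 RPKM in OT-II RIPmOVA libraries and at 114 to 198 in the other 7, and was not called in any comparison. Log2 values of Cxcr6 and Itgae ran closely together, with a Pearson r of 0.975 over the 9 libraries, which largely reflects the 2 libraries in which both were high.

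Markers of other cells were read beside Cxcr6 and Itgae, since regulatory and innate-like T cells can carry both. Foxp3, the regulatory T cell factor, was at 1.90 and 3.31 RPKM in OT-II RIPmOVA libraries and at most 0.491 in the other 7. The summed level of the 4 regulatory T cell markers was 24.4 to 28.6 RPKM in that group, 9.42 to 13.0 in DKO-labelled RIPmOVA libraries, and 5.52 to 7.80 and 1.98 to 3.25 in OT-II and DKO-labelled WT libraries. Between genotypes in RIPmOVA hosts Foxp3 (log2 -2.37) and Lrrc32 (-1.79) were called lower in DKO-labelled libraries. Il2ra (-0.90) and Ikzf4 (-0.94) were not called there. Il2ra (log2 host differences of 1.88 for OT-II and 2.04 for DKO-labelled cells) and Ikzf4 (1.37 and 1.47) were called higher with the antigen in both genotypes. The 5 NKT or innate-like T cell markers summed to 52.8 to 58.7 and 33.2 to 52.1 RPKM in OT-II and DKO-labelled RIPmOVA libraries, and to 8.15 to 8.89 and 5.95 to 13.7 in WT hosts. Of these 5, Tbx21 (log2 host differences of 3.09 for OT-II and 3.29 for DKO-labelled cells, limma adjusted p = 0.00209 and 0.000694) and Il2rb (2.36 and 2.15, adjusted p = 0.0205 and 0.0134) were called higher with the antigen in both genotypes. Zbtb16 was at most 0.415 and Klrb1c at most 0.335 RPKM in any library. Nkg7, a granule membrane protein of cytotoxic cells, was at 18.6 and 15.6 RPKM in the OT-II and 1.86 and 0.859 in the DKO-labelled RIPmOVA group.

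Myeloid or dendritic cell markers, 5 in all, summed to 8.78 to 19.6 RPKM in OT-II RIPmOVA libraries, 3.44 to 4.57 in DKO-labelled RIPmOVA libraries and 1.27 to 8.78 in WT hosts. Most of that sum was Lyz2 (18.7 and 8.44 RPKM in OT-II RIPmOVA libraries). The sums were 2.57 to 8.38 RPKM for B cells, 2.68 to 11.7 for thymic epithelium and 0.884 to 25.0 for red cells over the 9 libraries. No marker of these lists was at 0 in every library. The part of such cells in the Cxcr6 and Itgae results was not tested.

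Cd24a (Entrez 12484, chromosome 10, 43578284 to 43584265, plus strand) encodes heat-stable antigen, which immature single-positive cells carry and mature ones lose. Without the antigen its RPKM was 27.9 and 32.7 in control and 19.7, 30.4 and 27.9 in DKO-labelled cells. With it, the values were 75.7 and 67.5 in control and 66.6 and 46.8 in DKO-labelled cells. All 4 libraries from RIPmOVA hosts were above all 5 from WT hosts, whatever the genotype. Mean Cd24a was 2.36 times as high with the antigen in OT-II libraries (71.6 ± 5.77 against 30.3 ± 3.40, SD, n = 2 and 2), which is 1.23 in log2 (SE 0.22, limma adjusted p = 0.028). In DKO-labelled libraries it was 2.18 times as high (56.7 ± 14.0 against 26.0 ± 5.64, SD, n = 2 and 3), which is 1.11 in log2 (SE 0.20, adjusted p = 0.0188).

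The host effects of Cd24a differed by -0.12 between the genotypes (95% interval -0.78 to 0.55, limma adjusted p = 0.902). In RIPmOVA hosts both OT-II libraries were above both DKO-labelled ones, by a log2 difference of -0.35 for DKO-labelled against OT-II (adjusted p = 0.369). There 24.4% of all genes were lower in DKO-labelled libraries without overlap. The host calls of Cd24a are the least stable of the set. In OT-II the host difference was not called without OT-II replicate 1 from WT hosts (log2 1.12, adjusted p = 0.143), without DKO-labelled replicate 3 from WT hosts (adjusted p = 0.0529), or without replicate 1 or 2 of OT-II from RIPmOVA hosts (1.15, adjusted p = 0.239, and 1.31, adjusted p = 0.12). In DKO-labelled libraries it fell below the fold limit without DKO-labelled replicate 1 from WT hosts (0.92) and was not called without replicate 3 from WT hosts (1.17, adjusted p = 0.0587) or replicate 1 from RIPmOVA hosts (0.86, adjusted p = 0.166). The sensory receptor covariate left Cd24a uncalled in both genotypes, and the OT-II difference was also not called without a filter on low values or from the 4 OT-II libraries alone.

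**Figure D3:**
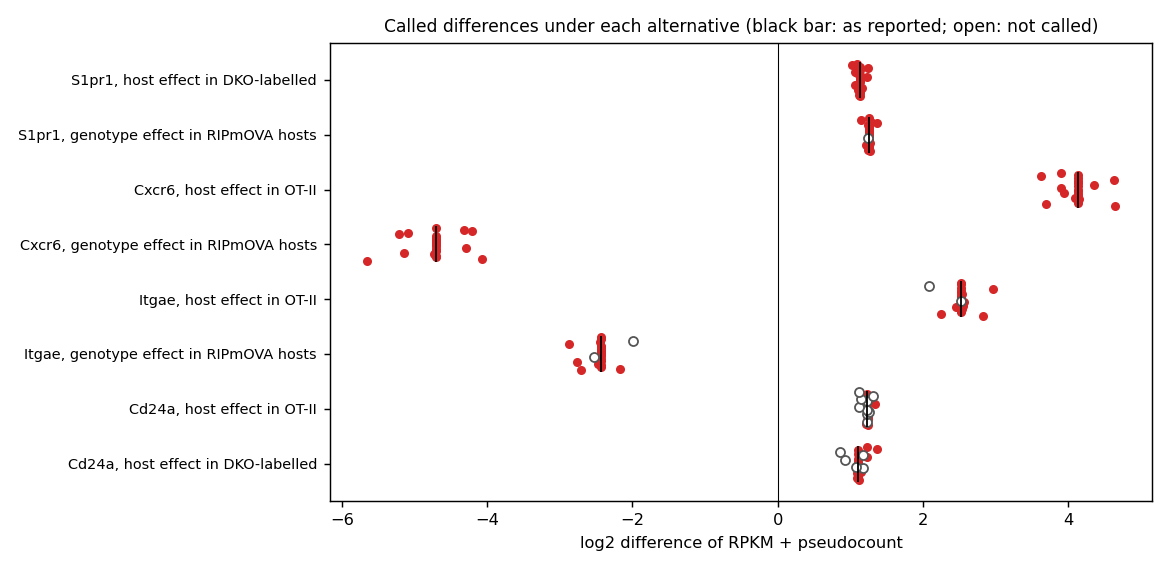
Log2 difference of RPKM plus the pseudocount (horizontal axis) for the 8 called differences, each point an alternative processing or a left-out library; filled red points were called, open points were not, and the black bar is the value reported. Every point stays on the side of 0 of its bar; the open points belong to Cd24a, Itgae and, in 1 case, S1pr1.

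Read over whole groups, 7 of the 9 genes were higher and 2 lower in every OT-II library from RIPmOVA hosts than in any from WT hosts, where 19.4% of all genes were higher and 22.1% lower without overlap. The 2 lower genes were Klf2 and Ccr7. In DKO-labelled libraries 4 were higher and the same 2 lower without overlap, where 22.7% and 17.3% of all genes were. Between genotypes in RIPmOVA hosts 4 were higher and 4 lower without overlap, against 34.6% and 24.4% of all genes, and in WT hosts 3 and 3, against 10.5% and 10.3%. In the interaction 0 of 9 were called by limma, where 0.0173% of all genes were called. At an unadjusted p under 0.05 there were 4 of the 9 (S1pr1, Cd69, Cxcr6 and Itgae), and 9.32% of all genes. The median log2 difference of the 9 between hosts was 0.47 in the OT-II group and 0.46 in the DKO-labelled group, where all genes had medians of -0.02 and 0.03.

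Of the other genes of the S1P system that were tested, none was called. The list held enzymes, transporters, receptors and motility factors of the pathway, 18 in all, of which 11 passed the filter and 0 were called in any comparison. Over all genes the share called was 0.0173% to 1.68%, depending on the comparison, so 0 calls among 11 is near that share. Coro1a, an actin regulator needed for thymic exit, was at 351 to 420 RPKM in the 9 libraries and differed by -0.16 between hosts in either genotype (limma adjusted p = 0.4 and 0.278). Rac2 (229 to 281 RPKM) and Gnai2 (90.5 to 102 RPKM), a GTPase and a G protein subunit through which such receptors signal, were not called either. S1pr4 and Grk2 were named after their values were seen. S1pr4, another S1P receptor, had log2 differences of -0.59 between hosts in OT-II libraries (adjusted p = 0.28) and 0.62 between genotypes in RIPmOVA hosts (adjusted p = 0.177). Grk2, a receptor kinase, had one of -0.62 between hosts in DKO-labelled libraries (adjusted p = 0.236). It rests largely on replicate 2: Grk2 was at 55.3 and 26.4 RPKM in DKO-labelled RIPmOVA and 61.5, 59.4 and 57.0 in DKO-labelled WT libraries. Foxo1, the factor known to act upstream of Klf2, was at 29.7 to 38.9 RPKM with a genotype difference of 0.10 in RIPmOVA hosts (adjusted p = 0.689). Between hosts the median log2 difference of the list was -0.15 (OT-II) and -0.03 (DKO-labelled). The KLF family had 7 of 16 members tested and 0 called, which is also near the share over all genes. Klf10 (16.8 to 32.8 RPKM), Klf13 (15.4 to 30.8) and Klf6 (10.4 to 15.6) were the most abundant.

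Among 19 other chemokine receptors 6 were tested. Cxcr3, the receptor for CXCL10, was higher with the antigen in both genotypes: RPKM was 8.20 and 20.8 (OT-II) and 4.85 and 1.16 (DKO-labelled) with it. Without it, RPKM was 1.04 and 0.851 (OT-II) and 0.118, 0.287 and 0.023 (DKO-labelled), giving host differences of 3.24 (limma adjusted p = 0.0224) and 2.23 (adjusted p = 0.0468). Unlike Cxcr6, Cxcr3 therefore passed the test between hosts in DKO-labelled libraries too, although the 2 genes were not compared by a test. Between genotypes in RIPmOVA hosts Cxcr3 was lower in DKO-labelled libraries, as Cxcr6 was, but not called (log2 -2.19, adjusted p = 0.0762). Its DKO-labelled WT values rest on 5, 10 and 1 reads, the last under the floor of 3 reads. Cxcr3 passed the filter only with the RIPmOVA libraries counted, in which it was high. Cxcr5, the follicular receptor, was called in DKO-labelled libraries (2.48 and 1.41 RPKM with the antigen, at most 0.205 without, log2 1.93, adjusted p = 0.0217), and it passed the filter only through the DKO-labelled RIPmOVA libraries. Ccr8 (27.9 to 256 RPKM) and Ccr9 (36.6 to 65.3 RPKM) were abundant and were not called. The median host difference of the 6 tested was 0.62 (OT-II) and 0.97 (DKO-labelled), where all genes had medians of -0.02 and 0.03. These medians of the 6 are not independent of the filter, which Cxcr3 and Cxcr5 passed through libraries in which they were high.

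Chemokine genes and Cdh1, which encodes E-cadherin, made a list of 11, of which 4 were tested. Xcl1, a chemokine that activated T cells release, was at 5.45 and 4.98 RPKM in OT-II RIPmOVA libraries and at 0 to 0.56 in the other 7. Its host difference in OT-II was 3.15 (limma adjusted p = 0.0116) and its genotype difference in RIPmOVA hosts was -2.97 (adjusted p = 0.014). It passed the filter only through the OT-II RIPmOVA libraries, so it had to differ in them. Cxcl10 was called higher with the antigen in DKO-labelled libraries (8.499 and 5.42 RPKM against 1.38, 0.469 and 0.205, log2 2.75, adjusted p = 0.017). In OT-II libraries it was also higher, at 3.61 and 1.42 RPKM against 0.839 and 0.222, but not called (log2 1.51, adjusted p = 0.219). Its interaction was not called either (1.23, adjusted p = 0.57). Cxcl10 passed the filter only with the RIPmOVA libraries counted, in which it was high, so its tests are not independent of the filter. Ccl5 and Ccl25 were not called. Cxcl16, the ligand of CXCR6, and Cdh1 were not among the 4 genes tested.

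Of 29 integrin, selectin and adhesion adaptor genes 15 were tested and 0 were called, near the 0.0173% to 1.68% of all genes called in each comparison. Itgb2 was at 273 and 281 RPKM in the OT-II and 199 and 209 in the DKO-labelled RIPmOVA group, a log2 difference of -0.44 that passed the limit on adjusted p (0.0246, limma) and not that on fold. Selplg, which encodes the P-selectin ligand, was at 181 to 268 RPKM. The list's median log2 difference was within 0.14 of 0 in each comparison.

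Of 14 genes that change as single-positive thymocytes mature, 13 were tested. Ms4a4b and Ms4a6b, which encode membrane proteins of the MS4A family, were lower with the antigen in OT-II libraries (log2 -1.34 and -1.33, limma adjusted p = 0.0407 and 0.0146). They were higher in DKO-labelled than in OT-II RIPmOVA libraries (1.51 and 1.27, adjusted p = 0.0246 and 0.0158). Ms4a4b was at 25.7 and 37.0 RPKM in OT-II RIPmOVA libraries and at 63.0 to 101 in the other 7. Il7r, the IL-7 receptor alpha chain, was lower with the antigen in DKO-labelled libraries (13.7 and 19.2 RPKM against 50.1, 49.3 and 56.0, log2 -1.64, adjusted p = 0.00336). Slfn2 and Slfn1, the most abundant of the list at 264 to 475 and 87.1 to 268 RPKM, were not called. The median host difference of the list was -0.51 (OT-II) and -0.23 (DKO-labelled).

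Regulators of G protein signalling shorten the response of receptors such as S1PR1 and CXCR4, and 8 of 14 were tested. Rgs16 was called in both host comparisons, at 20.8 and 23.4 RPKM (OT-II) and 19.6 and 8.25 (DKO-labelled) with the antigen against 0.171 to 0.634 without it (log2 4.39 and 4.06, limma adjusted p = 0.000789 and 0.000319), having passed the filter only through RIPmOVA hosts. Rgs10, Rgs14 and Rgs19, the most abundant of the family here, were not called.

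**Figure D4:**
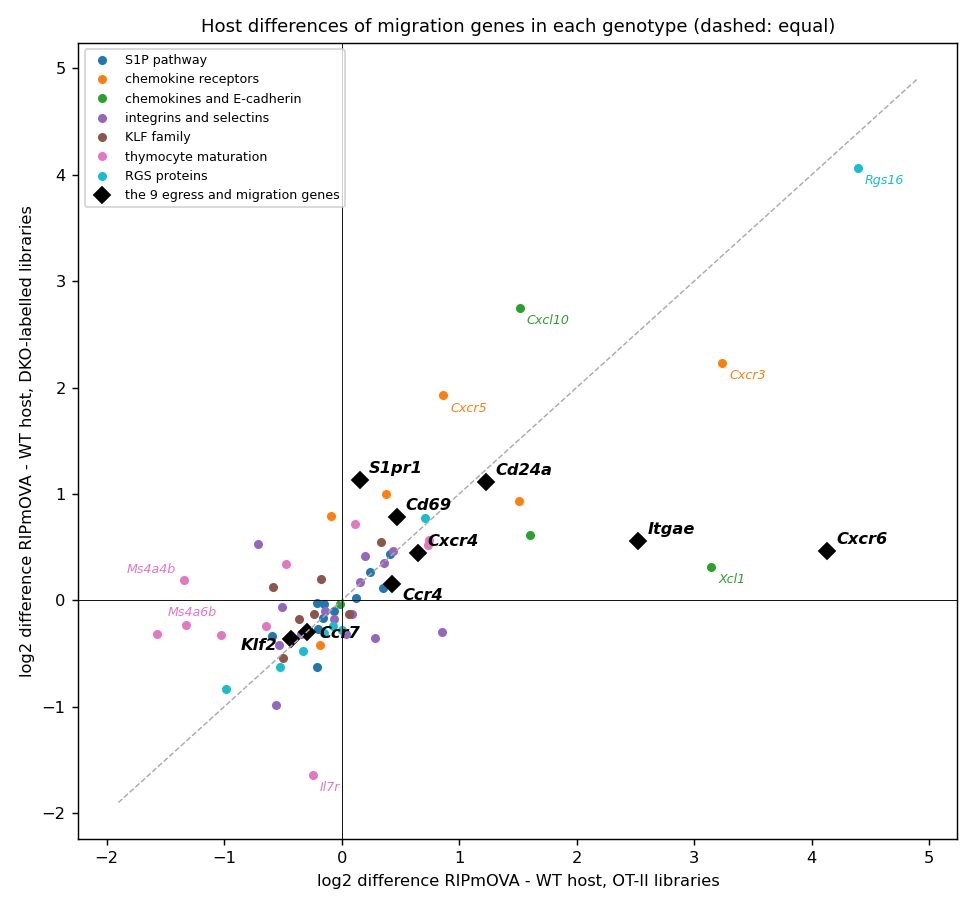
Log2 host difference of RPKM + 0.5 in OT-II (horizontal axis) against that in DKO-labelled libraries (vertical axis) for the 9 genes (black diamonds) and the tested genes of 7 lists (coloured points; labelled where called); the dashed line marks equal differences. Cxcr6, Itgae and Xcl1 lie far to the right near the horizontal axis, S1pr1 lies above the dashed line near the vertical axis, and Rgs16 lies near the dashed line.

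Genes whose log2 values ran most alike over the 9 libraries, out of 6618 with a mean of at least 5 RPKM, were named for 4 of the set. For Cxcr6 they were Phlda1, Samsn1 and Slc23a2 (Pearson r of 0.973, 0.967 and 0.961). Samsn1 was at a mean of 31.7 RPKM in OT-II RIPmOVA libraries and 8.55 to 12.7 in the other groups. For S1pr1 they were Nod1, Immt and Ifnar1 (0.948, 0.943 and 0.939), and Nod1 had a mean of 12.7 RPKM in DKO-labelled RIPmOVA libraries against 2.59 to 4.28 in the other groups. For Cd69 they were Apobec3, Tagap and Nfkbid (0.990, 0.984 and 0.982), and for Cd24a they were Swap70, Tnfaip3 and Asb2 (0.989, 0.983 and 0.981). Nfkbid and Tnfaip3 are regulators of NF-kappaB. With 9 libraries in 4 groups, such coefficients mostly describe the order of the group means.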

How the data were processed

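RNA of sorted thymocytes was made into SMART-seq v4 and Nextera XT libraries, from which duplicates were removed. Per the study's methods, alignment was to mm10 by STAR with GENCODE vM17, and reads on exons were summed for each Entrez gene. The authors deposited RPKM, scaled to exon length and library size. Aligner version and strand use are not given in the sources used here.

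Genes with at least 1 RPKM in at least 2 libraries were kept (11569 of 24594). Values were transformed as log2(RPKM + 0.5), where fold changes of low genes are understated, and fitted with limma 3.58.1 in R 4.3.3 as group means of 9 libraries, with an intensity trend. P-values were two-sided and adjusted by Benjamini-Hochberg over all kept genes. A call needed an adjusted p no higher than 0.05 and a log2 fold change of at least 1 in size, the limits of the study. No exact test of 2 against 2 libraries was used, since its smallest two-sided p is 0.333. Reads were recovered from the steps of low RPKM values, of which 100% were whole within 0.1 reads. There are no molecular identifiers, so read numbers cover counting error only.

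The 9 genes, the lists and the tests were chosen with earlier results of these data known. Named list genes were those called in any comparison and the 3 most abundant. Libraries with the same mouse label come from the same chimera. Their deviations from the group means correlated by 0.0059 and -0.239 in WT hosts and -0.0793 in RIPmOVA hosts. A fit with chimera as replicate block was an alternative, among 20 planned ones and 1 added. Lists were matched by symbol, and 1 listed symbol, Adrbk1, had no row. Positions come from GENCODE M21 on GRCm38 and promoters from RefSeq. Python 3.11.15 with pandas 2.3.3 and matplotlib 3.10.9 read the table and drew the plots. The fit was also run on simulated data of independent libraries with normal noise on the log scale. Shared chimeras, noise of low read numbers and differing background were not simulated, so that run does not cover them.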

Additional observations from a re-analysis of the deposited data

Results flagged for a closer look

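The order of the genotypes in Cd69 was opposite in WT and RIPmOVA hosts, but neither genotype difference was called. In WT hosts all 3 DKO-labelled libraries (82.6, 76.2 and 77.6 RPKM) were below both OT-II libraries (83.4 and 83.2), and in RIPmOVA hosts both DKO-labelled libraries (138 and 134) were above both OT-II libraries (113 and 118). In WT hosts the log2 difference was -0.08 (95% interval -0.24 to 0.08, limma adjusted p = 0.845), which cannot be told from 0. Of all genes, 10.3% were lower without overlap in WT hosts and 34.6% higher in RIPmOVA hosts. The test of the opposite order itself, the interaction of host and genotype, gave a log2 value of 0.31 (SE 0.11, limma adjusted p = 0.475), which is not past the threshold.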

How the results depend on the processing

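Of 931 values of single genes under the alternatives, 886 kept their direction and their side of the threshold, 19 were no longer called, 4 became called and 22 changed sign. All 22 were values that had not been called. Called values did not change sign. The cause of a changed count was not tested unless the alternative itself removes genes or libraries.

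Between hosts in OT-II libraries, the count of all genes called went from 142 to 78 with the replicate block by number, to 31 in a fit of the 4 libraries compared (with 1 of the 9 genes called) and to 219 on adjusted p alone. In DKO-labelled libraries it went from 194 to 110 with that replicate block (1 of the 9 called), to 87 with the sensory receptor covariate (1 called) and to 387 on adjusted p alone. Between genotypes in RIPmOVA hosts it went from 124 to 81 with the filter at RPKM 5, to 201 with quantile normalization (31.8% of them higher, against 47.6%), to 76 with the replicate block by number, to 20 with the covariate (1 called, 10% of all calls higher), to 220 in a fit of the libraries compared (64.5% higher) and to 256 on adjusted p alone. In WT hosts it went from 7 to 3 with that replicate block and to 2 in a fit of the libraries compared. The interaction count went from 2 to 8 without a filter and to 0 with a pseudocount of 0.1, the filter at RPKM 5, the replicate block by number and the covariate.

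Leaving out 1 library at a time, or both WT-host libraries with most sensory receptor reads (chosen after seeing the data), gave 1 to 3 of the 9 genes and 50 to 296 of all genes between hosts in OT-II libraries, and 1 to 2 and 98 to 565 in DKO-labelled libraries. It gave 21 to 585 of all genes between genotypes in RIPmOVA hosts, 4 to 100 in WT hosts, and 0 to 2 of the 9 and 0 to 159 of all genes in the interaction. The highest counts in WT hosts and the interaction came without OT-II replicate 2 of WT hosts.

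Sign changes among uncalled values were as follows. With quantile normalization the host difference of Cxcr6 in DKO-labelled libraries was -0.074, and 77.7% of all calls there were higher, against 90.7%. With the replicate block by number the genotype difference of Cxcr4 in WT hosts was 0.24 and the interaction of Ccr7 was 0.015, and with the covariate the latter was 0.0042. With libraries left out, the host difference of Ccr4 in DKO-labelled libraries ran from -0.11 to 0.36 and the genotype difference of Cxcr4 in RIPmOVA hosts from -0.60 to 0.020. In WT hosts the genotype differences ran from -0.56 to 0.18 (Ccr4) and from -0.47 to 0.25 (Cxcr4). Interactions ran from -0.018 to 0.20 (Klf2), -0.16 to 0.15 (Ccr7), -0.54 to 0.20 (Ccr4), -0.54 to 0.18 (Cxcr4) and -0.37 to 0.13 (Cd24a).

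The replicate block by chimera changed no call of the 9 genes, with 142, 193 and 165 genes called in the first 3 comparisons. Replicate numbers across hosts mark no shared animal, so the other block tests only a shared number. It left Cd24a uncalled in both host comparisons. A lone library is assumed to vary like the rest. Cxcr4 did not pass the filter at RPKM 5, and a fit of the libraries compared does not apply to the interaction.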
